A study of Mus musculus with 16 samples.

Results

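The 10 genes described here are markers of the cells that build small brain vessels. Cldn5, Pecam1, Esam, Kdr, Flt1, Tek, Tie1 and Slco1c1 mark endothelial cells, Igfbp7 is a secreted product of vessel cells, and Pdgfrb marks pericytes. They were found by gene name on Agilent whole-genome mouse arrays. They are 10 of 28655 gene names on the array. Of 41174 probes that are not controls, 13 carried one of these names: 4 for Flt1 and 1 for each of the other 9 genes, Esam being listed under its older name Esam1. All 13 passed the filter on dim probes, which left 39227 probes for testing. Where 1 value per gene is given, it is that of the gene's brightest probe.

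The arrays compared eGFP+ cells of newborn GAD67-eGFP mice (C57Bl/6 background, postnatal day 1) with total brain. In these mice green fluorescence follows expression of glutamate decarboxylase 67, an enzyme that makes the inhibitory transmitter GABA. Sorted cells came from whole brain (4 arrays, 4 mice) and from 4 regions dissected from the brains of 6 mice, 3 arrays for each of olfactory bulb, cortex, striatum and cerebellum. Every array carried the same kind of reference, RNA of whole brains from 4 mice of that age amplified like the sorted samples. The samples are called biological replicates in the labels, which do not say whether regional samples share animals; where they do, the p-values measure a spread that is partly technical. Values below are log2 ratios of sorted cells (Cy5) over the total brain reference (Cy3), so a negative ratio means less signal in the sorted cells. The dyes follow the labelling protocol, which gives Cy5 to the samples and Cy3 to the reference, although the labels call both dyes red. The dyes were not swapped.

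As background, endothelial cells of the brain are sealed by tight junctions and carry selective transporters, which together form the blood-brain barrier. Vessel growth is steered by VEGF acting on Kdr and Flt1 and by angiopoietins acting on Tek, with Tie1 as its partner receptor. Pericytes are recruited by PDGF-B from endothelial cells acting on Pdgfrb. Neurons are not the cells these genes are known for, so in a sort of GABAergic neurons they serve as markers of other cells, although such a marker can have further sources in newborn brain. In bulk samples like these, fewer vessel cells and less RNA per vessel cell cannot be told apart.

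The share of an array's spots that stood well above background ran from 78.1% to 96.6% for sorted cells and from 72.1% to 90.7% for the reference. Arrays of the same group correlated across probes at Pearson's r of 0.934 to 0.992, and arrays of different groups at 0.604 to 0.924. The 4 whole-brain arrays were scanned on 1 day and the 12 regional arrays on another, so whole brain against regions cannot be told apart from scan day. Of 8 GABAergic genes, 5, 8, 8, 8 and 6 were higher than the reference in whole brain, olfactory bulb, cortex, striatum and cerebellum. In the same order, 3, 0, 0, 0 and 1 were lower, and the list medians were 1.22, 1.85, 1.76, 2.00 and 0.64. Of all probes, 34.1% to 41.2% were higher and 32.8% to 38.1% were lower in these groups. Gad1, which encodes glutamate decarboxylase 67 itself, averaged -1.51 in whole-brain sorts and 0.79 to 0.91 in the 4 regions.

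Most of the vascular genes gave less signal in the sorted cells than in total brain. In whole brain, olfactory bulb, cortex, striatum and cerebellum, 8, 8, 8, 8 and 9 of the 10 were lower than the reference at an adjusted p under 0.05, where 38.1%, 32.8%, 33.6%, 33.3% and 36.4% of all probes were. The numbers higher than the reference were 2, 1, 1, 1 and 1, where 41.2%, 34.6%, 34.8%, 34.1% and 38.8% of all probes were. Cldn5, Kdr, Tek, Tie1, Pdgfrb, Igfbp7 and Slco1c1, 7 of 10, were lower in all 5 groups, as were 19.2% of all probes. Esam was higher in all 5, as were 18% of all probes. The median ratio of the 10 genes was -0.89 in whole brain and, among the regions, -1.25 in cerebellum, -1.03 in olfactory bulb, -0.89 in cortex and -0.64 in striatum, beside medians of all probes between 0.01 and 0.04.

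**Figure D1:**
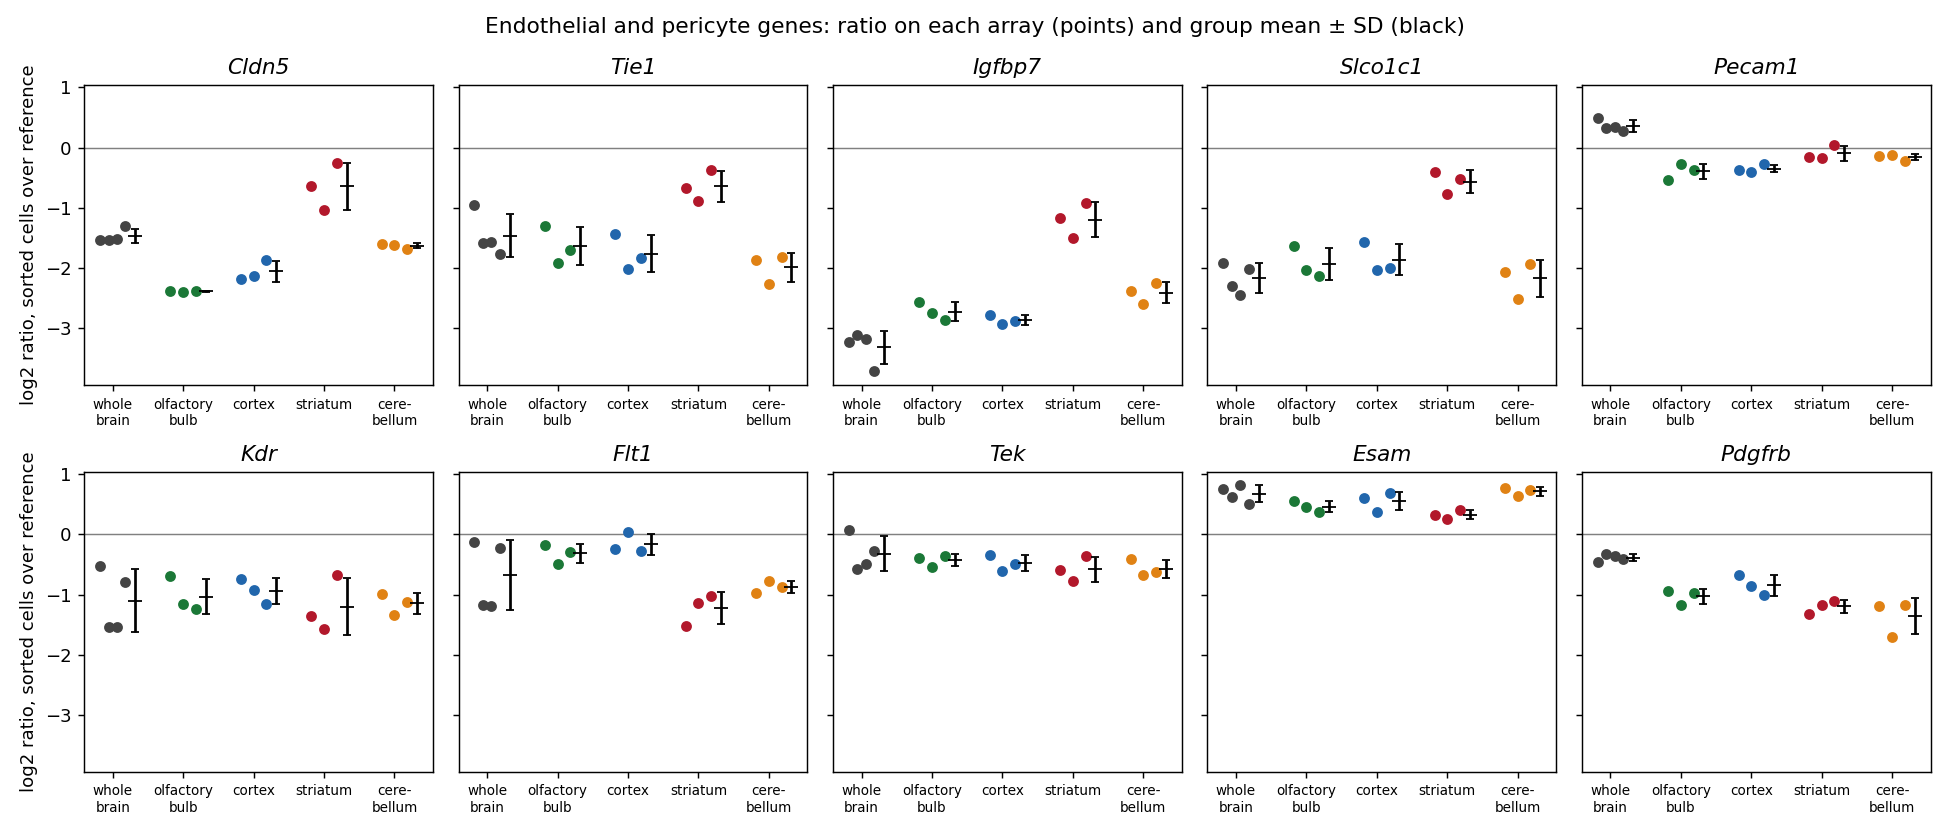
Log2 ratio of sorted cells over total brain reference on each array (coloured points) for the 10 genes, with the mean and SD of each group in black (n = 4 for whole brain, n = 3 for each region); 0 is equal signal. Cldn5, Tie1, Igfbp7 and Slco1c1 lie below 0 everywhere and are closest to it in striatum, while Esam lies above 0 on all 16 arrays.

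Cldn5, the main claudin of endothelial tight junctions in brain, was lower in the sorted cells on every array. Its ratios were -1.53, -1.53, -1.52 and -1.30 in whole brain, -2.38, -2.39 and -2.38 in olfactory bulb, -2.17, -2.13 and -1.86 in the cortex, -0.64, -1.03 and -0.25 in the striatum, and -1.60, -1.61 and -1.68 in the cerebellum. The 3 striatum arrays were above all 13 others, and they also varied most among themselves (SD 0.39, against 0.01 in olfactory bulb). The group means lay 5.21-fold below the reference in olfactory bulb (adjusted p = 4.31e-14) and 1.56-fold below it in striatum (adjusted p = 9.01e-06), with the other groups between. The reference signal of Cldn5 was steady: it spanned 0.32 on the log2 scale over the 16 arrays, and its SD of 0.09 stood at percentile 2.76 of all probes.

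Pecam1, an adhesion molecule of endothelial cells that platelets and leukocytes also carry, had ratios of 0.49, 0.33, 0.35 and 0.27 in whole brain, all positive, with a mean of 0.36 ± 0.09 (SD, n = 4; adjusted p = 7.77e-06). In the regions it was close to the reference, at -0.40 ± 0.13 in olfactory bulb, -0.35 ± 0.06 in the cortex, -0.09 ± 0.12 in the striatum and -0.16 ± 0.05 in the cerebellum (SD, n = 3 each). The test called olfactory bulb, cortex and cerebellum lower (adjusted p = 2.11e-05, 9.2e-05 and 0.0339) and not striatum (adjusted p = 0.211), but with arrays centred on their medians in place of loess the ratio turned positive in olfactory bulb (0.06), striatum (0.25) and cerebellum (0.06) and was not called in cortex (-0.05, adjusted p = 0.671). Its regional means fell in the same order as those of Cldn5, with striatum highest and olfactory bulb lowest, over a range of 0.30 in place of 1.74. The cerebellum call was lost without any 1 of the 3 cerebellum arrays (adjusted p = 0.0505 to 0.164).

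Esam, an adhesion molecule of endothelial tight junctions, was the exception among the 10. Its ratios were 0.76, 0.63, 0.81 and 0.50 in whole brain, 0.55, 0.46 and 0.37 in olfactory bulb, 0.60, 0.38 and 0.68 in the cortex, 0.32, 0.26 and 0.40 in the striatum, and 0.77, 0.63 and 0.73 in the cerebellum. All 16 were positive, and the group means were 1.25-fold (striatum, adjusted p = 0.000443) to 1.64-fold (cerebellum, adjusted p = 2.08e-08) above the reference. Striatum, the highest region for Cldn5, was the lowest for Esam by the ratio, and among regions only its difference from cerebellum was called (adjusted p = 0.00535). Striatum minus cerebellum was -0.02 in the sorted channel and 0.36 in the reference channel. Against olfactory bulb, the sorted channel of striatum was 0.31 higher and the reference channel 0.44 higher. The probe carries the RefSeq transcript NM_027102; whether it detects Esam alone was not tested.

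The receptors for VEGF were dim, and here the reference channel itself moved. Kdr, the main signalling receptor for VEGF, had ratios of -0.52, -1.54, -1.54 and -0.79 in whole brain, -0.69, -1.16 and -1.24 in olfactory bulb, -0.73, -0.93 and -1.16 in the cortex, -1.35, -1.57 and -0.67 in the striatum, and -0.99, -1.33 and -1.12 in the cerebellum. Every array was negative and all 5 groups were called lower, with overlapping ranges, and no difference among the 4 regions was called (adjusted p = 0.757 by the F test). In olfactory bulb and cortex no array showed Kdr well above background in the sorted cells. For such groups the fold is a bound, in which each dim signal is raised, where it is lower, to the lowest well-above-background signal of its array. The mean sorted levels there were 6.19 and 6.10 on the log2 scale, against reference levels of 7.22 and 7.04. By the bound, the sorted cells were at least 2.04-fold lower in olfactory bulb and at least 1.82-fold lower in cortex. The test of the ratios without the bound gave adjusted p = 2.66e-05 in olfactory bulb and 7.57e-05 in cortex.

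The Kdr signal of the reference, which should be common to all arrays, ran from 6.92 to 8.38 on the log2 scale, and its SD of 0.51 stood at percentile 99.1 of all probes. It was 8.25, 8.20 and 7.79 on the striatum arrays, against 6.97, 7.40 and 7.30 on those of olfactory bulb and 7.14, 6.92 and 7.05 on those of cortex, with no overlap. In the sorted cells Kdr stood well above background on all 3 striatum arrays and on none of the olfactory bulb or cortex arrays. The cause of the varying reference signal was not tested.

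Flt1, the receptor that binds VEGF tightly and limits its action, also as a soluble form, was read by 4 probes that disagreed. The brightest, A_51_P398723, had ratios of -0.13, -1.17, -1.19 and -0.23 in whole brain, -0.17, -0.49 and -0.29 in olfactory bulb, -0.24, 0.04 and -0.28 in the cortex, -1.52, -1.13 and -1.02 in the striatum, and -0.98, -0.78 and -0.88 in the cerebellum. It was called lower in whole brain, striatum and cerebellum, and not in olfactory bulb (adjusted p = 0.085) or cortex (adjusted p = 0.382). Striatum was the lowest region, at -1.23 against -0.16 in cortex (difference -1.07, SE 0.22, adjusted p = 0.00349), although it was the highest for Cldn5. The difference lay in the reference channel, which was 1.40 higher on the striatum than on the cortex arrays, while the sorted channel was 0.34 higher.

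A second probe of the same transcript, A_52_P520859, was lower in all 5 groups, with means of -1.27 in whole brain, -0.67 in olfactory bulb, -0.89 in the cortex, -1.24 in the striatum and -1.37 in the cerebellum. No sorted-channel array was well above background for it in olfactory bulb or cortex, where the sorted cells were at least 1.58-fold and at least 1.79-fold lower. Probe A_52_P307922, on the sequence D88690, stayed within 0.31 of the reference in every group mean and was called lower in whole brain, olfactory bulb and striatum. Probe A_52_P405145, on AK005502, was called in no group, with means from -0.10 to 0.15. The 4 probes thus gave 3, 5, 3 and 0 groups called lower.

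**Figure D2:**
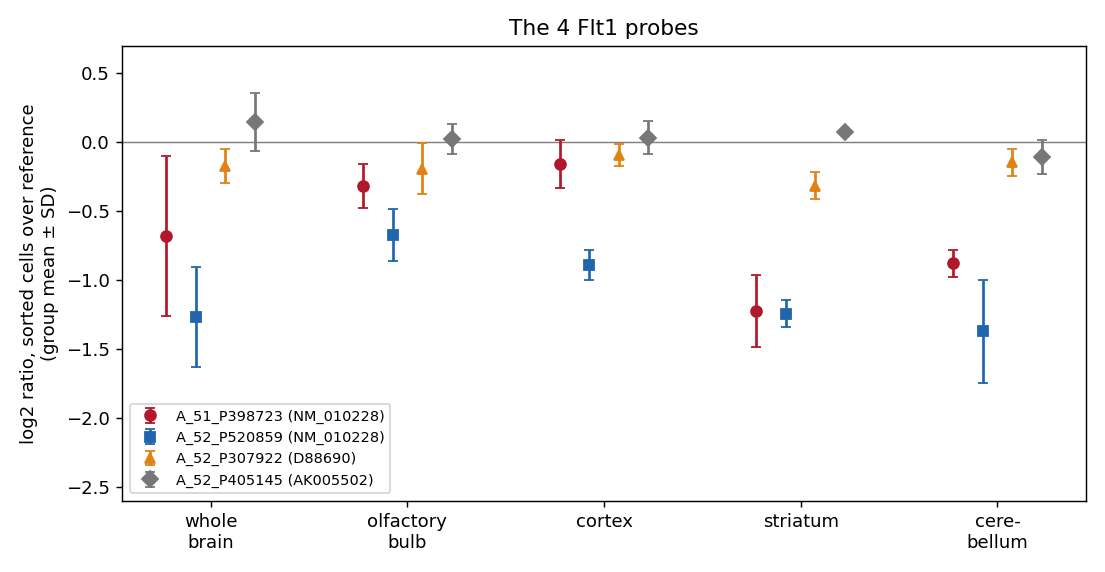
Group means with SD (n = 4 for whole brain, n = 3 for each region) of the log2 ratio of sorted cells over reference for the 4 Flt1 probes, which are marked by shape. A_52_P520859 lies between -0.67 and -1.37 in all 5 groups, while A_52_P405145 stays near 0.

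The angiopoietin receptor Tek was lower than the reference in all 5 groups by small amounts, with means of -0.32 ± 0.29 in whole brain (SD, n = 4), and -0.43 ± 0.10, -0.48 ± 0.13, -0.58 ± 0.21 and -0.57 ± 0.15 in olfactory bulb, cortex, striatum and cerebellum (SD, n = 3 each). One whole-brain array was at 0.07 and the other 15 were negative. No difference among the 4 regions was called (adjusted p = 0.717), and in the sorted cells of olfactory bulb Tek stood well above background on 1 of 3 arrays. Its reference signal moved with that of Kdr: 7.28, 7.23 and 7.07 on the striatum arrays, against 6.51, 6.76 and 6.70 on the olfactory bulb arrays.

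**Figure D3:**
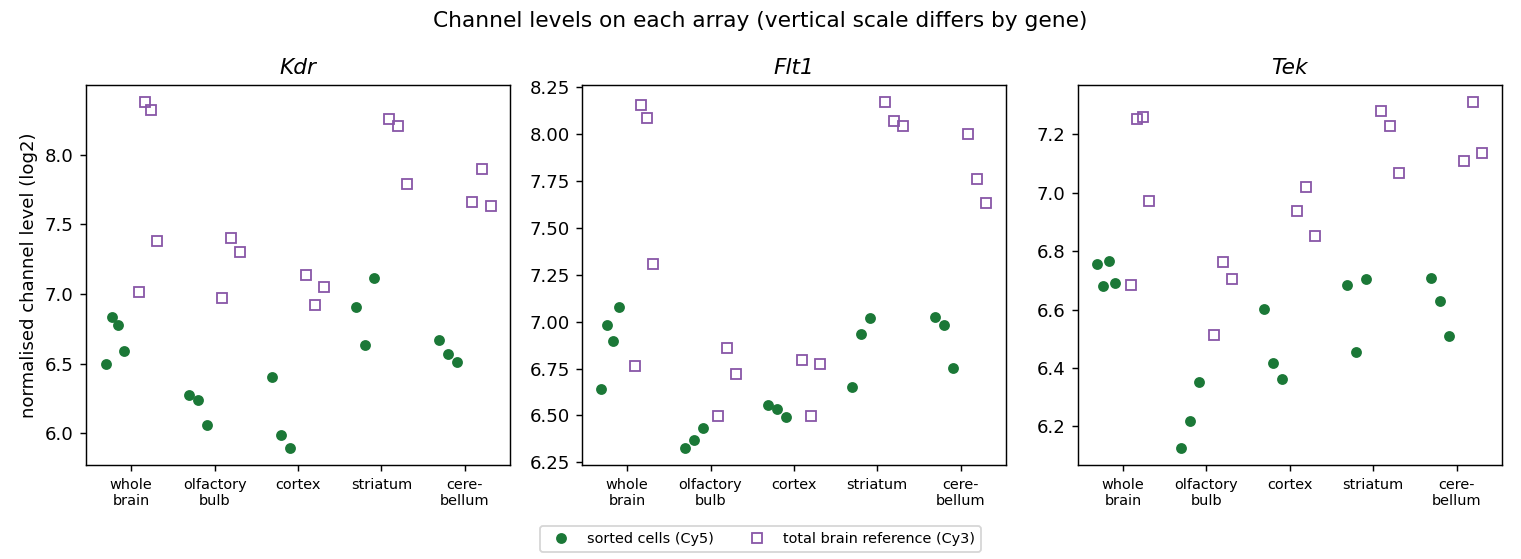
Normalised channel levels on the log2 scale for Kdr, Flt1 (brightest probe) and Tek on each array, with sorted cells as filled circles and the total brain reference as open squares. The reference squares of striatum lie above those of olfactory bulb and cortex for all 3 genes, although the reference is common to the groups.

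Tie1, the partner receptor of Tek, was highest in striatum, as was Cldn5. Its ratios were -0.94, -1.58, -1.56 and -1.76 in whole brain, -1.29, -1.91 and -1.70 in olfactory bulb, -1.43, -2.02 and -1.84 in the cortex, -0.66, -0.89 and -0.37 in the striatum, and -1.87, -2.26 and -1.82 in the cerebellum. All 16 were negative, and the 3 striatum arrays were above the other 13, the nearest being the whole-brain array at -0.94. The sorted cells were 3.96-fold below the reference in cerebellum (adjusted p = 1.57e-10) and 1.56-fold below it in striatum (adjusted p = 0.000522). In the sorted cells of cortex Tie1 stood well above background on 1 of 3 arrays.

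Igfbp7, a secreted binding protein of the vessel wall, had the lowest whole-brain mean of the 10 genes, both by the ratio used here and by the scanner software's. Its ratios were -3.23, -3.12, -3.18 and -3.71 in whole brain, -2.56, -2.75 and -2.87 in olfactory bulb, -2.77, -2.93 and -2.88 in the cortex, -1.16, -1.51 and -0.92 in the striatum, and -2.38, -2.59 and -2.25 in the cerebellum. Whole brain and striatum were at opposite ends and the 5 groups overlapped only between olfactory bulb, cortex and cerebellum. The sorted cells were 9.92-fold below the reference in whole brain (adjusted p = 2.75e-17) and 2.29-fold below it in striatum (adjusted p = 6.91e-09).

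Slco1c1, a thyroid hormone transporter of barrier endothelium, had ratios of -1.91, -2.30, -2.44 and -2.01 in whole brain, -1.63, -2.04 and -2.13 in olfactory bulb, -1.56, -2.02 and -2.00 in the cortex, -0.40, -0.78 and -0.52 in the striatum, and -2.07, -2.51 and -1.93 in the cerebellum. The striatum arrays again lay above the rest, which overlapped with each other. The sorted cells were 4.5-fold below the reference in cerebellum (adjusted p = 4.63e-12) and 1.48-fold below it in striatum (adjusted p = 0.000419). The striatum call was lost with arrays centred on their medians (-0.23, adjusted p = 0.0738).

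Pdgfrb, the receptor through which pericytes are recruited, was lower in all 5 groups but had another order. Its ratios were -0.46, -0.32, -0.36 and -0.41 in whole brain, -0.94, -1.17 and -0.97 in olfactory bulb, -0.67, -0.86 and -1.01 in the cortex, -1.31, -1.17 and -1.10 in the striatum, and -1.19, -1.70 and -1.18 in the cerebellum. The 4 whole-brain arrays lay above all 12 regional arrays, and striatum did not stand out. The sorted cells were 1.31-fold below the reference in whole brain (adjusted p = 0.000119) and 2.56-fold below it in cerebellum (adjusted p = 3.88e-11). With arrays centred on their medians the whole-brain value was -0.03 and was not called (adjusted p = 0.701).

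The size of these ratios for dim genes rests on the background offset of 50, which draws them towards 0. By the scanner software's own log ratio, the deficit of the sorted cells was larger for Tek in olfactory bulb (-1.73, against -0.43), for Tie1 in cortex (-3.65, against -1.76), for Pdgfrb in olfactory bulb (-2.17, against -1.03) and for Slco1c1 in olfactory bulb (-3.04, against -1.93). The software's log ratio also called Flt1 lower in olfactory bulb (-1.26) and cortex (-0.81), where the ratio used here did not.

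Among the 4 regions, 8 of the 10 genes differed by the moderated F test, where 55.9% of all probes did, and 24 of 60 pairs of regions were called, where 27.1% of all pairs of all probes were. Kdr and Tek were the 2 genes without a call. By pair, the calls were 0 for olfactory bulb against cortex (15.7% of all probes), 6 for olfactory bulb against striatum (26%), 4 for olfactory bulb against cerebellum (39.8%), 5 for cortex against striatum (17.5%), 4 for cortex against cerebellum (26.5%) and 5 for striatum against cerebellum (37.2%). In the sorted channel alone 8 genes also differed, but Kdr, which was dim there, and Tek were then among them, and Esam (adjusted p = 0.317) and Pdgfrb (adjusted p = 0.586) were not. The largest regional differences were those of Cldn5, Igfbp7, Slco1c1 and Tie1. The SD of their ratios over the 12 regional arrays stood at percentiles 99.3, 99.3, 99.3 and 98.7 of all probes, that of Flt1 at 97.4, and those of the other 5 genes between 23.1 and 81.4.

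In Cldn5, Tie1, Igfbp7 and Slco1c1, striatum was higher than each of the other 3 regions, which holds for 4 of 10 genes and for 3.43% of all probes. Cldn5 averaged -0.64 in striatum, against -2.38 in olfactory bulb (difference 1.74, SE 0.14, adjusted p = 4.65e-08), -2.05 in cortex (1.41, adjusted p = 2.94e-06) and -1.63 in cerebellum (0.99, adjusted p = 2.42e-05). Tie1 averaged -0.64 in striatum, against -1.63 in olfactory bulb (difference 0.99, SE 0.20, adjusted p = 0.0013), -1.76 in cortex (1.12, adjusted p = 0.00113) and -1.98 in cerebellum (1.34, adjusted p = 4.74e-05). These differences correspond to 1.98- to 3.34-fold for the tight junction gene and 1.99- to 2.53-fold for the receptor. By the scanner log ratio the Tie1 differences were larger, at 2.44 for striatum minus cerebellum, -2.40 for olfactory bulb minus striatum and -2.82 for cortex minus striatum on the log2 scale.

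Igfbp7 averaged -1.20 in striatum, against -2.73 in olfactory bulb (difference 1.53, SE 0.15, adjusted p = 7.69e-07), -2.86 in cortex (1.66, adjusted p = 1.52e-06) and -2.40 in cerebellum (1.21, adjusted p = 7.07e-06). Slco1c1 averaged -0.57 in striatum, against -1.93 in olfactory bulb (difference 1.36, SE 0.17, adjusted p = 1.43e-05), -1.86 in cortex (1.30, adjusted p = 8.62e-05) and -2.17 in cerebellum (1.60, adjusted p = 1.2e-06). In all 4 genes the 3 striatum arrays lay above the other 13 arrays, as they did for 4.64% of all probes. The difference lay in the sorted channel: for Igfbp7, striatum was 1.60, 1.67 and 1.23 above olfactory bulb, cortex and cerebellum in the sorted cells, and 0.07, 0.01 and 0.03 above them in the reference.

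**Figure D4:**
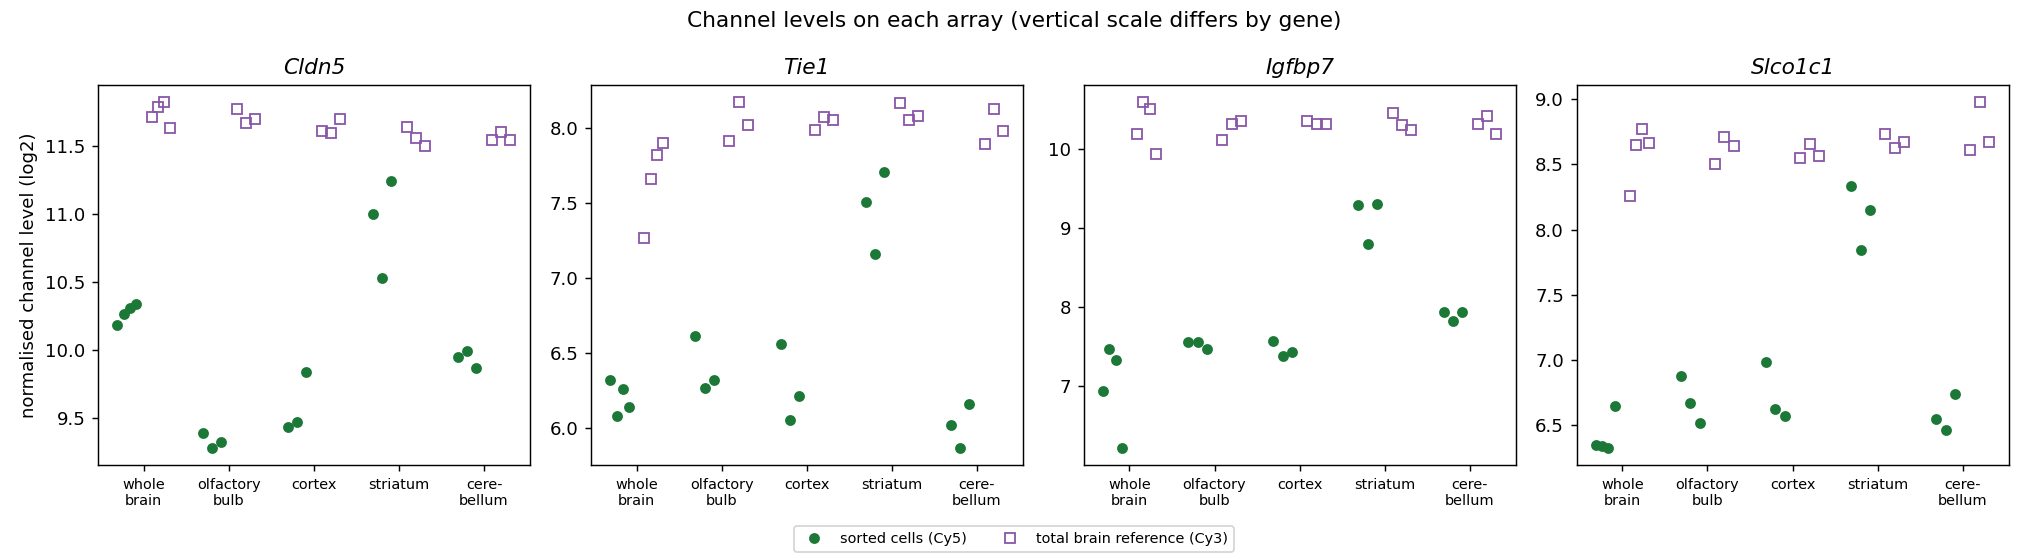
Normalised channel levels on the log2 scale for Cldn5, Tie1, Igfbp7 and Slco1c1 on each array, with sorted cells as filled circles and the total brain reference as open squares. In striatum the sorted-cell level is nearer to the reference than in any other group, while the reference level differs little between the regions.

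The order of the other 3 regions was not resolved for most of these genes. For Cldn5, cerebellum was higher than olfactory bulb and cortex, while no difference between olfactory bulb and cortex was called (adjusted p = 0.119). For Igfbp7, cortex was lower than cerebellum (difference -0.45, adjusted p = 0.0324), and for Tie1 and Slco1c1 no pair without striatum was called. Outside these 4 genes, striatum exceeded another region in 1 called pair, Pecam1 against olfactory bulb (-0.09 and -0.40, difference 0.30, adjusted p = 0.0211). It was lower in 3 called pairs, Flt1 against olfactory bulb and cortex and Esam against cerebellum. In these 3 the reference channel was higher in striatum, by 1.40, 1.40 and 0.36. The sorted channel differed by 0.49, 0.34 and -0.02.

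Because Cldn5, Tie1, Igfbp7 and Slco1c1 moved together among regions, the bases before their starts are shown. RefSeq promoter windows (GRCm38.p6) were read for 7 of the 10 genes, and not for Pecam1, Esam or Pdgfrb. The 250 bases before the listed start are printed on the strand of the gene. Capitals mark the letters GGAA or TTCC, the core bound by ETS factors, which act in endothelial genes, searched on both strands. The windows are chr16:18776597-18776846, plus strand, for Cldn5, chr4:118489850-118490099, minus strand, for Tie1, chr5:77408046-77408295, minus strand, for Igfbp7, and chr6:141524104-141524353, plus strand, for Slco1c1.
Cldn5: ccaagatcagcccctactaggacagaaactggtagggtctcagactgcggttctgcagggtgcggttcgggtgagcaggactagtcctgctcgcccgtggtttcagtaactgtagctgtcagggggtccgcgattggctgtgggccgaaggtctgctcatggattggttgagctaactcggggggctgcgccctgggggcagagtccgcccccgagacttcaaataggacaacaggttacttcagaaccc
Tie1: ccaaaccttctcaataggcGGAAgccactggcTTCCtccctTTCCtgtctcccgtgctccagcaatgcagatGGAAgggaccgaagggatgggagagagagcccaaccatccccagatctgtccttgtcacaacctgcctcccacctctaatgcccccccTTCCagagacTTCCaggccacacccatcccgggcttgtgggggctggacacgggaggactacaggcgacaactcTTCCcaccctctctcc
Igfbp7: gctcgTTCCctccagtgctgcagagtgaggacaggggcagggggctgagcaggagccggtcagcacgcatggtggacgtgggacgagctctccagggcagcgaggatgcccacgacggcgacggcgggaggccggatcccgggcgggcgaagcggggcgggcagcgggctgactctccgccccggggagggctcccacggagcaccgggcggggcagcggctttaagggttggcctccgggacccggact
Slco1c1: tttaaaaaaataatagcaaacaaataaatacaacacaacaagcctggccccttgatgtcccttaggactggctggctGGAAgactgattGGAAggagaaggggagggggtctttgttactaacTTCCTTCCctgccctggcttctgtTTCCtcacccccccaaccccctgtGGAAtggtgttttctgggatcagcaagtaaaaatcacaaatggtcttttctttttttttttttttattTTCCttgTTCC

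The 4 genes did not share this core: Cldn5 had 0 matches, Tie1 7, Igfbp7 1 and Slco1c1 8. Over 32851 RefSeq windows of this length, 93.4% held at least 1 match, with a median of 3. Base composition differed as widely, from 42.8% G and C with 0 CG pairs in Slco1c1 to 74% with 26 CG pairs in Igfbp7, beside medians of 52.4% and 6 over all windows. A match is a run of letters and not a known site.

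Whole brain and the mean of the 4 regions differed in 4 of the 10 genes, which cannot be told apart from scan day. Igfbp7 (-3.31 in whole brain, against a mean of -2.30 over the regions; difference -1.01, SE 0.11, adjusted p = 6.98e-08) and Slco1c1 (difference -0.53, SE 0.12, adjusted p = 0.000794) were lower in whole brain, as were 32.9% of all probes. Pecam1 (difference 0.61, SE 0.07, adjusted p = 8.38e-08) and Pdgfrb (difference 0.72, SE 0.09, adjusted p = 5.9e-07) were higher, as were 29.9% of all probes. The count of higher genes was 2 here, 4 without cortex replicate 3, 5 with median centring or scaling between arrays, and 6 by the scanner log ratio, while the count of lower genes was 0 with scaling.

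Other endothelial genes, from a list of 26 of which 25 had a probe (Apold1 had none by that name), moved in both directions. Beside the 32.8% to 38.1% of all probes that were lower and the 34.1% to 41.2% that were higher, 15, 16, 15, 14 and 16 of the 25 were lower than the reference and 7, 4, 6, 3 and 3 were higher in whole brain, olfactory bulb, cortex, striatum and cerebellum, and the median ratio ran from -0.46 to -0.27. Itm2a, a membrane protein of barrier endothelium, was lowest, at -2.66, -2.71, -2.35, -1.96 and -2.46. Cdh5, the cadherin of endothelial adherens junctions, was lower everywhere at -1.75, -1.79, -1.85, -1.68 and -2.09, with no call among its 4 regions (adjusted p = 0.336). Slco1a4, a transporter, and Clec14a, a lectin of vessel lining, were higher in all 5 groups, at 1.18, 1.21, 1.35, 1.25 and 1.88 and at 0.35, 0.94, 0.89, 0.45 and 1.13, as was Vwf (0.49, 0.64, 0.41, 0.27 and 0.53).

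Of these 25 genes, 2 were higher in striatum than in each other region, Slc2a1 and Nos3, beside 3.43% of all probes. Slc2a1, the glucose transporter of the blood-brain barrier, averaged 0.14 in striatum, against -0.83 in olfactory bulb, -1.11 in cortex and -1.10 in cerebellum (differences 0.97, 1.25 and 1.24, adjusted p = 7.38e-05, 2e-05 and 2.9e-06). Nos3, the endothelial nitric oxide synthase, averaged -0.89 in striatum, against -2.19, -1.87 and -1.85 in the same 3 regions (differences 1.29, 0.98 and 0.96, adjusted p = 2.12e-07, 2.8e-05 and 5.02e-06). The striatum arrays lay above the other 13 for both and for Itm2a, as they did for 4.64% of all probes. Cdh5 did not follow them: striatum was 0.11 above olfactory bulb, 0.16 above cortex and 0.40 above cerebellum (adjusted p = 0.739, 0.625 and 0.131).

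**Figure D5:**
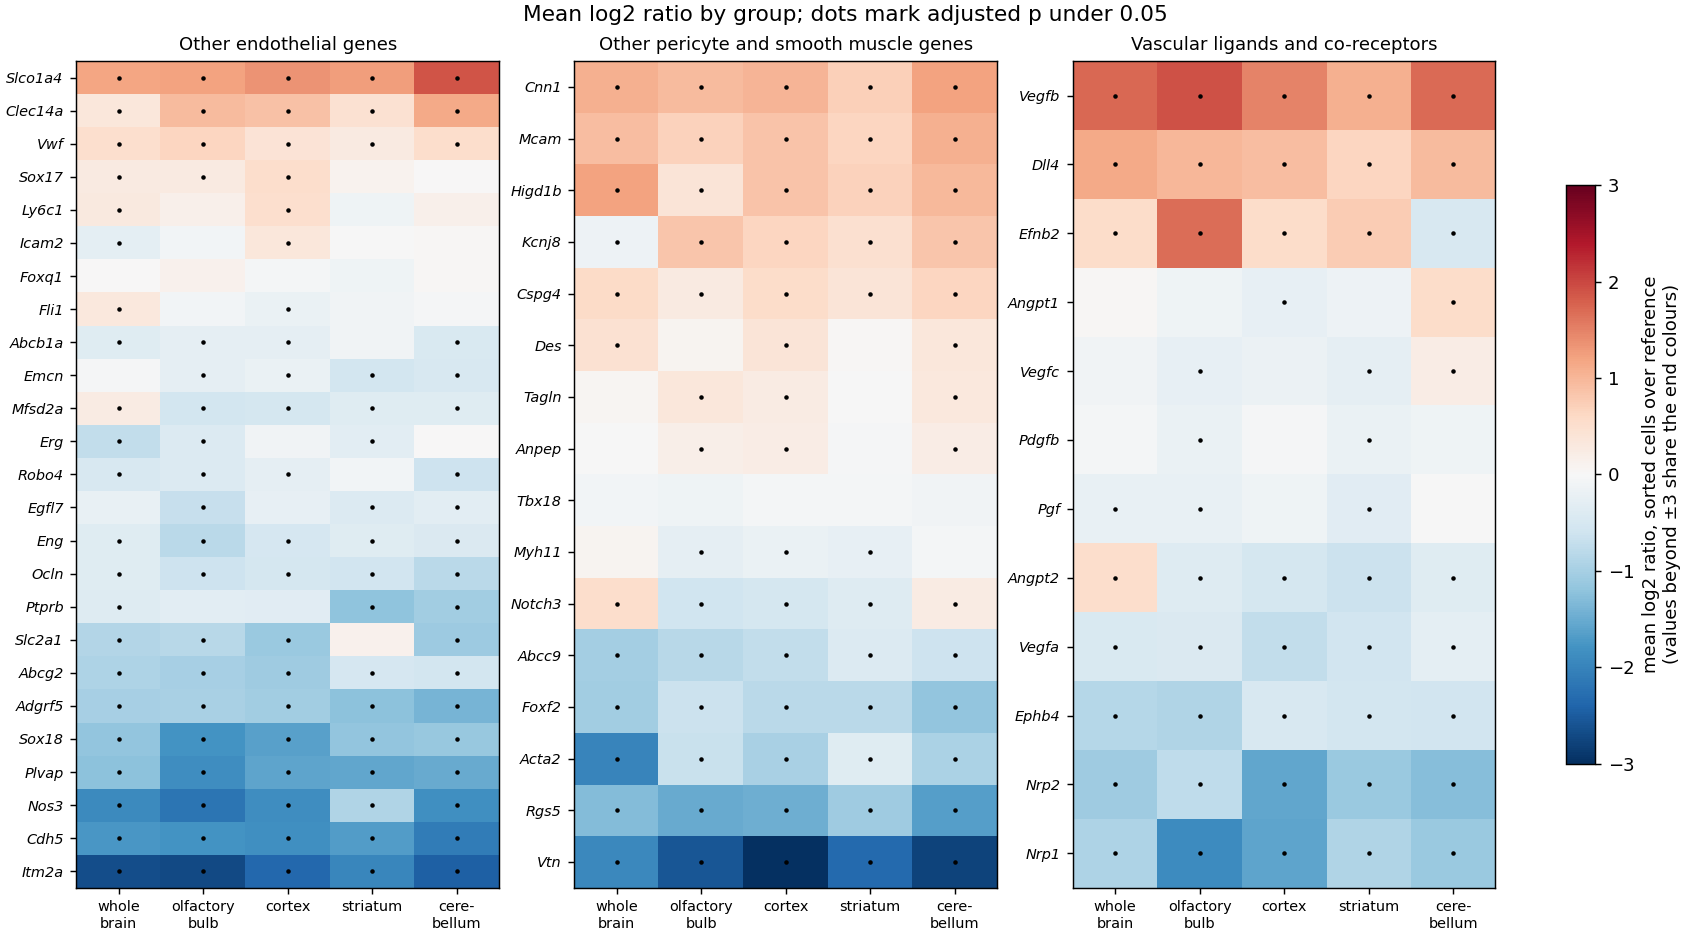
Mean log2 ratio of sorted cells over reference by group for the other endothelial genes, the other pericyte and smooth muscle genes and the vascular ligands and co-receptors, with blue below and red above the reference and a dot where the adjusted p is under 0.05. Itm2a and Vtn are the deepest blue of their panels, and Slc2a1 is near 0 in striatum (0.14).

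Pericyte and smooth muscle genes other than Pdgfrb were divided. Of 16 with a probe (Ndufa4l2 had none by that name), 6, 7, 7, 7 and 5 were lower and 6, 7, 8, 5 and 9 were higher in whole brain, olfactory bulb, cortex, striatum and cerebellum, with medians from -0.05 to 0.23. Of all probes, 32.8% to 38.1% were lower and 34.1% to 41.2% were higher in these groups. Vtn, a plasma and matrix protein made by pericytes, was lowest (-1.94, -2.57, -3.40, -2.33 and -2.78). Rgs5, a regulator of G protein signalling and a standard pericyte marker, followed (-1.31, -1.52, -1.47, -1.06 and -1.65), and it was higher in striatum than in the 3 other regions (differences 0.46, 0.41 and 0.59 over olfactory bulb, cortex and cerebellum, adjusted p = 0.00874, 0.0266 and 0.000891). Cnn1, a smooth muscle calponin, and Mcam, an adhesion molecule, were highest by their mean over groups (1.07, 0.94, 1.02, 0.71 and 1.22, and 0.93, 0.70, 0.86, 0.63 and 1.07).

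Of the 12 genes listed as vascular ligands and co-receptors, 5, 8, 6, 8 and 6 were lower and 4, 3, 3, 3 and 4 were higher in the same 5 groups. The shares of all probes there were 32.8% to 38.1% lower and 34.1% to 41.2% higher. The VEGF co-receptors Nrp1 (-0.94, -1.89, -1.59, -0.91 and -1.12) and Nrp2 (-1.06, -0.77, -1.56, -1.12 and -1.27), which axons also carry, were lowest, and Vegfa was lower in all 5 groups (-0.46, -0.44, -0.74, -0.58 and -0.30). Vegfb (1.73, 1.92, 1.50, 1.07 and 1.70) and the Notch ligand Dll4 (1.13, 1.00, 0.93, 0.65 and 0.94) were highest. Pdgfb, the ligand of Pdgfrb, was near the reference, with means from -0.20 to -0.04 and calls in olfactory bulb and striatum. Vegfa and Pdgfb were chosen after their values were seen.

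Markers of other cell types were read beside the vascular genes, and their counts stand against the same shares of all probes, 32.8% to 38.1% lower and 34.1% to 41.2% higher. Lower than the reference in whole brain, olfactory bulb, cortex, striatum and cerebellum were 9, 12, 10, 8 and 9 of 14 microglia genes, 9, 9, 8, 8 and 9 of 12 astrocyte genes, 5, 5, 6, 6 and 6 of 8 oligodendrocyte lineage genes, 7, 7, 7, 6 and 7 of 10 meninges and choroid plexus genes, 8, 10, 8, 8 and 7 of 10 glutamatergic neuron genes and 1, 1, 1, 2 and 1 of 5 erythroid genes. Higher in the same order were 5, 1, 3, 3 and 3 microglia genes and 2, 3, 3, 4 and 3 astrocyte genes. So were 2 oligodendrocyte lineage genes in every group and 1, 0, 1, 1 and 2 meninges and choroid plexus genes. The higher glutamatergic genes were 0, 0, 1, 1 and 2, and the higher erythroid genes 2, 1, 1, 1 and 1. Of the 12 immediate early genes, which respond to tissue handling, 7, 7, 9, 8 and 8 were higher and 3, 2, 1, 1 and 1 were lower.

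Some of these markers moved with the 4 vascular genes in striatum, and the named ones were chosen after their values were seen. Higher in striatum than in each other region were 3 of 14 microglia genes (C1qc, Ctss and Laptm5), 1 of 5 erythroid genes (Hba-a1), 2 of 10 meninges and choroid plexus genes (Igf2 and Ttr), 1 of 12 astrocyte genes (Sox9) and 1 of 8 oligodendrocyte lineage genes (Olig2), beside 3.43% of all probes. Among neuronal and handling genes, 1 of 10 on the glutamatergic list (Bcl11b), 1 of 8 GABAergic (Dlx2) and 1 of 12 immediate early genes (Jun) were higher too. Whether Bcl11b marks glutamatergic neurons in these sorts was not tested. Ttr, the transthyretin of choroid plexus, averaged 1.33 in striatum, against -2.09 in olfactory bulb, -1.49 in cortex and -2.69 in cerebellum. The alpha-globin gene Hba-a1 averaged -1.66 in striatum, against -3.15, -3.49 and -2.20.

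The summed sorted-channel signal of the meninges and choroid plexus list ran from 6408 to 8010 units on the striatum arrays, against 6002 to 6321 in olfactory bulb, 4863 to 5413 in cortex and 6528 to 6955 in cerebellum. That of the erythroid list ran from 15143 to 20725 in striatum, against 6570 to 7225 in olfactory bulb, 4514 to 5833 in cortex and 10055 to 11773 on the 2 cerebellum arrays with all 5 values. That of the microglia list ran from 6124 to 6325 in striatum, against 3810 to 4303, 4869 to 5285 and 6228 to 6555. The part of these cell types in the higher vascular signal of striatum was not tested.

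Over all 16 arrays, the genes outside the 10 whose ratios most resembled those of Cldn5 were Clu (Pearson's r = 0.949), Foxj1 (r = 0.905) and Lhx8 (r = 0.851), among 2375 genes with an SD of at least 0.5. Clu, a secreted chaperone, averaged -1.42, -2.34, -1.85, -0.70 and -1.50 in whole brain, olfactory bulb, cortex, striatum and cerebellum. Foxj1, a regulator of motile cilia, averaged -1.56, -2.22, -2.10, -0.60 and -1.85. Those most like Pdgfrb were Nav3 (r = 0.943), Grm8 (r = 0.941) and Chchd6 (r = 0.939), which like Pdgfrb were highest in whole brain. Arrays share group, scan day and reference, so these values describe likeness and carry no test.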

How the data were processed

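Each deposited array file gives, per the file headers, the mean and background intensity of every spot in both dyes and a log10 ratio of Cy5 over Cy3. The authors made these values with Agilent Feature Extraction 8.1.1.1, per the submitters' processing notes. The deposited value table holds the same log10 ratio to within 0.005. Files of the 12 regional and 4 whole-brain arrays were read alike; 1 unreadable line was left out.

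Intensities were corrected with normexp (offset 50), normalised by loess within arrays and turned into log2 ratios with limma 3.58.1 in R 4.3.3; the deposited files hold no such log2 values. Spots marked by the scanner were left out, and spots of a probe were averaged. A probe was tested where 3 or more sorted-cell spots, or 8 or more reference spots, were well above background, which removed 1947. Probes were named through RefSeq by accession (21445), symbol (5431) or synonym (4636), and 9662 kept the array's name. The 5 group means were fitted by lmFit and eBayes over all 16 arrays, with Benjamini-Hochberg adjustment over all tested probes for each comparison. Channel levels are loess values put on a common scale of mean intensity between arrays. SE values are limma's. Motifs were counted with Python 3.11.15, and figures drawn with matplotlib 3.10.9.

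In simulated cortex ratios, the fit recovered 92 of 100 changes of 0.5 and 99 of 100 changes of 1 (log2), with 10 of 39027 unchanged probes called. The simulated noise was independent between probes and arrays and held no dye bias or varying reference signal. These rates therefore need not hold for the real calls. The number of arrays limits the precision. The genes, gene lists and the rule for naming genes (all probes of the 10 genes; of other lists the 2 lowest and 2 highest called genes by mean ratio, and any endothelial or pericyte gene; the 3 genes most like Cldn5 and Pdgfrb) were chosen with earlier results of these data known. Alternatives were other background corrections, normalisations, filters and probe rules, the sorted channel alone, a replicate block, and leaving out each array.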

Additional observations from a re-analysis of the deposited data

Results flagged for a closer look

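In whole brain, 1 of the 4 Cldn5 ratios stood apart: replicate 4 was at -1.30 and the other 3 at -1.53, -1.53 and -1.52, a gap of 0.932 of the whole range, which is above Dixon's 95% critical value for 4 samples. Such a gap arises by chance in about 5% of groups, and 10 groups were looked at. Without that array Cldn5 was still called lower in whole brain.

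The effect against the reference differed between regions, by the moderated F test, in 8 of the 10 genes, as it did for 55.9% of all probes. From the highest to the lowest regional mean, the log2 ratio spanned 1.74 in Cldn5, 1.66 in Igfbp7, 1.60 in Slco1c1, 1.34 in Tie1, 1.07 in Flt1, 0.51 in Pdgfrb, 0.39 in Esam and 0.30 in Pecam1. Striatum was highest in Cldn5, Igfbp7, Slco1c1, Tie1 and Pecam1 and lowest in Flt1 and Esam, while Pdgfrb was highest in cortex and lowest in cerebellum.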

How the results depend on the processing

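The 12 differences of striatum from the other 3 regions in Cldn5, Tie1, Igfbp7 and Slco1c1 kept their direction and their call under all 27 alternatives run, with sizes from 0.72 to 2.82 on the log2 scale. With median centring in place of loess, 5 of the 10 genes differed among regions and 15 of 60 region pairs were called, in place of 8 and 24, 2 genes were higher than the reference in striatum, in place of 1, and 5 were higher in whole brain than in the regions, in place of 2. Under the same centring Pecam1 turned to 0.0636 in olfactory bulb, 0.2503 in striatum and 0.0618 in cerebellum. The count of genes higher in whole brain was 6 by the scanner log ratio and 5 with scaling between arrays, where the count of lower genes was 0, in place of 2. The cause was not tested. The scanner log ratio moved the median of all probes in whole brain to 0.15, in place of 0.04. Median centring moved the split of calls between olfactory bulb and cortex to 13.7% higher and 6.56% lower, in place of 8.3% and 7.36%, that between olfactory bulb and striatum to 15.3% and 9.04%, in place of 13.2% and 12.8%, and that between whole brain and cerebellum to 30.9% and 27.2%, in place of 22.7% and 32.2%.

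Leaving out 1 array at a time gave 19 to 26 called region pairs, 7 to 8 genes that differ among regions, 2 to 4 higher in whole brain than in the regions (4 without cortex replicate 3) and 8 to 9 lower than the reference in cerebellum and in olfactory bulb; the other counts did not change. The call of Pecam1 in cerebellum was lost without any 1 of its 3 arrays. With the replicate block, over the 12 regional arrays, 8 genes differed and 27 pairs were called, against 8 and 25 without it. Same-numbered regional arrays deviated from their group means together in 5 of 18 pairs (r over 0.1, range -0.12 to 0.25) and other pairs in 5 of 36 (range -0.24 to 0.24). The mean r was 0.04 and -0.02. These few pairs cannot settle whether same-numbered arrays share animals, and the main fit did not pair them. Each array had its own slide, and scan day separates whole brain from regions, so no fit with slide or scan day as a block was run. Signal over background limits Kdr, Flt1, Tek and Tie1, which were near background in the sorted channel.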
